A study of Mus musculus with 8 samples.

Results

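The genes described here are the 10 genes of the glycolytic isoenzyme families, the hexokinases Hk1, Hk2 and Hk3, the phosphofructokinase subunits Pfkl, Pfkm and Pfkp, the phosphoglycerate mutase Pgam1, the pyruvate kinase Pkm and the lactate dehydrogenase subunits Ldha and Ldhb. They were picked by symbol from the 15576 rows of a table of estimated read counts of bulk RNA-seq libraries, and all 10 were in the table and passed the filter on low counts. The libraries came from cells sorted from the bone marrow as stem cells, which the study calls leukemic stem cells (LSCs), of CML mice on a C57BL/6 background, a double transgenic model of chronic myeloid leukemia in which withdrawal of tetracycline lets SCL-tTA turn on BCR-ABL in stem cells. All 8 libraries therefore carry both transgenes. The CML group was untreated (n = 4 libraries) and the CML-TKI group (n = 4 libraries) was given 400 mg/kg of the tyrosine kinase inhibitor imatinib by gavage on alternate days, for 4 weeks in the sample label and for 30 days in the treatment protocol, and its cells are called IM-persistent. The dose is that of the labels, and the study's text also gives a lower dose for these mice. The labels give the age of the animals for neither group, and they do not state whether a library was made from 1 mouse or from a pool, so the p-values measure the spread between these libraries, which may in part be technical. The question was which of the alternative enzymes of a glycolytic step were transcribed in the sorted cells of untreated and of imatinib-treated mice.

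Glycolysis breaks glucose down to pyruvate, and several of its steps can be run by alternative enzymes from separate genes. Hexokinases trap glucose in the cell as glucose 6-phosphate, phosphofructokinase commits the sugar to glycolysis as a tetramer of liver, muscle and platelet type subunits, Pgam1 converts 3-phosphoglycerate to 2-phosphoglycerate, Pkm makes pyruvate together with ATP, and lactate dehydrogenase interconverts pyruvate and lactate as a tetramer of A and B subunits. Hk1 is the widely expressed hexokinase bound to mitochondria, Hk2 is known for its induction in proliferating and tumor cells, and Hk3 is known for its expression in myeloid cells. The Pkm gene gives PKM1 and PKM2 by alternative splicing, and gene counts do not tell these isoforms apart. In blood stem cells glycolysis is known as a main source of energy under low oxygen.

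Total counts ranged from 4939644 to 8620101 in the CML libraries and from 1041552 in CML-TKI 3 to 5104268 in CML-TKI 1. The ribosomal precursor Rn45s took between 9.23% and 38.3% of a library's counts. The libraries CML 1, CML 2 and CML 3 resembled each other far more than any other pair of the same group. The chi-square of their counts over genes was 3.99 to 5.95 per degree of freedom, against 27.2 to 94.1 for the other pairs. They differed by more than counting noise, which does not tell separate mice from repeat libraries of the same cells. They were entered as separate libraries, and for calls the values with these libraries summed to 1 are given as well. CML-TKI 1 stood apart from the other CML-TKI libraries in its marker genes, as described with the hexokinases. The labels give every library the same gate, Lin-Sca1+cKit+Flt3-CD150-CD48+, whereas the study's text defines LSCs as CD150+ and CD48-. Slamf1, which encodes CD150, ranged over 29.01 to 37.7 CPM in CML and over 0.620 to 6.58 CPM in CML-TKI (CPM is the count relative to the library total, scaled for composition with TMM factors). For Cd48 the ranges were 3.86 to 6.40 CPM and 39.9 to 178 CPM, and for Kit, the stem cell factor receptor, they were 764 to 1023 CPM and 194 to 290.4 CPM. The groups overlapped for Ly6a, which encodes Sca1, at 33.2 to 38.5 CPM in CML and 1.56 to 44.3 CPM in CML-TKI. They also overlapped for Flt3, at 15.7 to 17.2 CPM in CML and 7.75 to 63.2 CPM in CML-TKI. The CML libraries thus held CD150 transcripts with little Cd48, against the gate of the labels. The CML-TKI libraries held the reverse, against the study's definition of LSCs, and their stem cell and myeloid markers, given with the hexokinases, also go against the name, so they are called by their group below.

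The upstream stretches of Hk1, Hk2, Hk3 and Pgam1 are shown because these genes mark the hexokinase shift and the member with the highest fold change outside that family. The sequences are RefSeq promoter windows of GRCm38 (the assembly of mm10), read 5′ to 3′ on the strand of the gene and ending before the first annotated exon. Capitals mark ACGTG, the core of the hypoxia response element, or GAGGAA, a core bound by ETS factors such as PU.1, on either strand, so that the reverse complements CACGT and TTCCTC are also in capitals.
Hk1, inner start, chr10:62340543-62340671, minus strand: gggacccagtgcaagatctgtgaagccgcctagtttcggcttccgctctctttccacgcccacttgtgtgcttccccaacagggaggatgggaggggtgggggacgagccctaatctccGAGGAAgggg
Hk1, outer start, chr10:62379921-62380158, minus strand: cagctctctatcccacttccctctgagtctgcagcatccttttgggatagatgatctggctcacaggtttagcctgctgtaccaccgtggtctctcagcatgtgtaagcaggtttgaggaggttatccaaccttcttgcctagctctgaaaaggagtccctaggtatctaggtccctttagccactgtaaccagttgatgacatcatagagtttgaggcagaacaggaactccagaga
Hk2, chr6:82774455-82774704, minus strand: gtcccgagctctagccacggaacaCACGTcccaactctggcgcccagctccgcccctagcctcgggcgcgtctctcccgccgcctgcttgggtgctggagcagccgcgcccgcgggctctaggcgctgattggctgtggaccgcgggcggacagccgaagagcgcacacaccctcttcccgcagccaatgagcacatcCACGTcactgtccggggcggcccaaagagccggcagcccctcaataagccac
Hk3, chr13:55021476-55021635, minus strand: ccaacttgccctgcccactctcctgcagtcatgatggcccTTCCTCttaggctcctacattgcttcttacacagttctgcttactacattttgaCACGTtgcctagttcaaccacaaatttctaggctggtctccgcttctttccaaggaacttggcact
Pgam1, chr19:41911621-41911870, plus strand: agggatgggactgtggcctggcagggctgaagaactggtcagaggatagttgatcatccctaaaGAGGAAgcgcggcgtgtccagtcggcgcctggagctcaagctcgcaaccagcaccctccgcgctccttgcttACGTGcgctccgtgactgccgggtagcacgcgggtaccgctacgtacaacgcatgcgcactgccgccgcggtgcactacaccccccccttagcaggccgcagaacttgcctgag

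Distances are counted to the RefSeq transcript start of each window. For Hk3 and both starts of Hk1 it lies downstream of the point where the stretch was cut at an annotated exon or gene end. The Hk2 stretch held 2 matches of the hypoxia core, 226 and 52 bases before the start, and its GC content was 69.6%. The Hk3 stretch held 1 hypoxia core, 156 bases before the start, and 1 ETS core at 210 bases, in a sequence with 48.8% GC. The Pgam1 stretch held a hypoxia core at 114 bases and an ETS core at 186 bases. The stretch shown for the inner start of Hk1 had an ETS core at 131 bases, while the 2 hypoxia cores of its 300-base window lay outside that stretch, and the outer start had neither motif. Both motifs are common. Of 32817 windows of 300 bases (250 before and 50 after a start), 19.6% held ACGTG on either strand and 28.3% held GAGGAA, and of the 16 windows of the 10 genes, 8 windows of 7 genes held ACGTG and 7 windows of 4 genes held GAGGAA. The E-box CACGTG, a site bound by MYC among others that contains ACGTG, was found in 7.15% of all windows and in 2 windows of the 10 genes, and the STAT motif TTCNNNGAA in 8.29% of all windows and in 1 of theirs, a Pfkm window. GGGCGG, the GC box bound by SP1, was found in 35.6% of all windows and in 6 of theirs. A match in these windows is a description of the letters and not a binding site.

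The hexokinase counts of the CML libraries were mostly Hk1, while those of the CML-TKI libraries were divided among Hk1, Hk2 and Hk3, with Hk3 the largest part in 3 of 4 libraries and Hk1 in CML-TKI 1. Hk1 (chr10:62268855-62379920) was measured at 256, 235, 251 and 240.2 CPM in the libraries CML 1, CML 2, CML 3 and CML 5, and at 135, 102, 61.4 and 179 CPM in CML-TKI 1 to 4. Every CML-TKI library was below every CML library, and the spread among the CML libraries was small (246 ± 9.83 CPM, SD, n = 4) beside that among the CML-TKI libraries (119 ± 49.9 CPM, SD, n = 4). The log2 fold change of CML-TKI over CML was -1.03 ± 0.297 (SE), with an edgeR quasi-likelihood adjusted p of 0.0546, which missed the threshold of 0.05.

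Hk2 (chr6:82725025-82774454) had 55.6, 45.6, 47.5 and 46.9 CPM in the CML libraries and 63.8, 99.2, 77.8 and 74.9 CPM in the CML-TKI libraries. The groups did not overlap, and the lowest CML-TKI library was CML-TKI 1. Its log2 fold change was 0.69 ± 0.215 (SE), with an edgeR adjusted p of 0.0720, so that it was not called.

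Hk3 (chr13:55005985-55021475) was, per length of transcript, the lowest of the hexokinases in every CML library and the highest in CML-TKI 2 to 4. It had 11.2, 10.8, 15.7 and 18.8 CPM in the CML libraries and 46.7, 212, 282 and 269 CPM in the CML-TKI libraries. CML-TKI 1 was the lowest of the treated libraries, yet it lay above all CML libraries. The fitted log2 fold change was 3.83 ± 0.526 (SE), the highest of the 10 genes, with an edgeR adjusted p of 0.00224. It stayed between 3.65 and 4.16 when any 1 library was left out, with an adjusted p of at most 0.0139. With CML 1 to 3 summed to 1 library, so that CML was left with 2 libraries, it was 3.67 with an adjusted p of 0.0724.

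**Figure D1:**
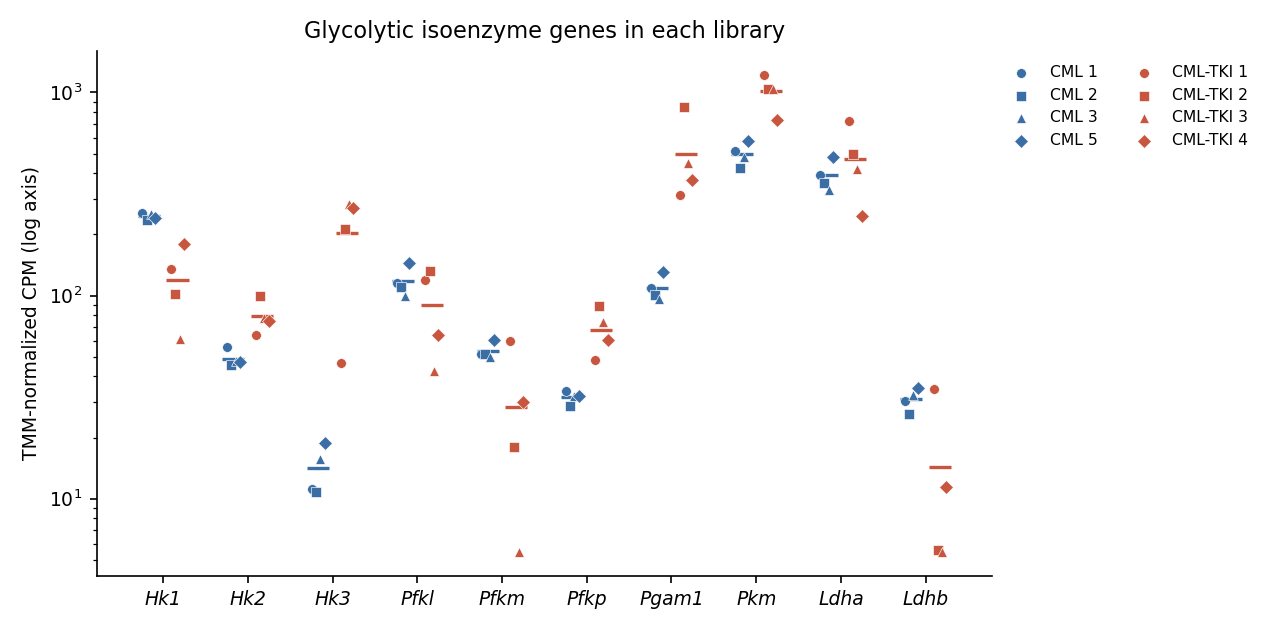
TMM-normalized CPM (log axis) of the 10 isoenzyme genes, with a point for each of the 4 CML (blue) and 4 CML-TKI (red) libraries, a marker shape for each library and a bar at the group mean. Hk2, Hk3, Pfkp, Pgam1 and Pkm lay above the whole CML range in each CML-TKI library, Hk1 lay below it in each, and the groups overlapped for the other 4 genes.

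Expressed as shares of the counts of the 3 hexokinases, Hk1 made up 79.3%, 80.6%, 79.9% and 78.5% in the CML libraries and 54.9%, 24.7%, 14.6% and 34.2% in CML-TKI 1 to 4. Hk3 made up 3.46%, 3.71%, 4.98% and 6.16% in the CML libraries, and 19.1%, 51.3%, 66.9% and 51.4% in the CML-TKI libraries. The Hk2 share overlapped between the groups, at 15.1% to 17.2% in CML and 14.3% to 26.03% in CML-TKI. The mean share of Hk1 was 79.6 ± 0.900% (SD, n = 4) in CML and 32.1 ± 17.2% in CML-TKI, and that of Hk3 was 4.58 ± 1.25% and 47.2 ± 20.1%. These shares were described and not tested, since they come from the same contrast that was known when the genes were chosen. The family counts behind the shares ranged from 384 in CML-TKI 3 to 2372 in CML 1, and the 95% Wilson interval of the Hk3 share was 62.1% to 71.4% in CML-TKI 3 and 17.01% to 21.3% in CML-TKI 1. Such intervals cover counting error only.

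The sum of the 3 hexokinases changed less than its composition, with 323, 291, 314 and 306 CPM in the CML libraries against 245, 413, 421 and 523 CPM in the CML-TKI libraries. The groups overlapped, since CML-TKI 1 was below all CML libraries and the other 3 CML-TKI libraries above them (309 ± 13.5 and 401 ± 115 CPM, SD, n = 4 each). Per base of transcript, Hk3 made up 6.31 ± 1.68% and 56.1 ± 21.5% of the family, Hk1 81.7 ± 1.24% and 29.9 ± 18.3%, and the same shares separated the groups without overlap.

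Markers of granulocytes and monocytes moved with Hk3. The summed level of 14 granulocyte markers was 183 to 305 CPM in the CML libraries, 1539 CPM in CML-TKI 1 and 8139 to 8718 CPM in CML-TKI 2 to 4, and 13 of the 14 were called higher (7 without CML 1 or CML 2, 8 without CML 3, 9 without CML 5 and 6 with CML 1 to 3 summed). The 10 monocyte markers summed to 254 to 329 CPM in CML, to 1615 CPM in CML-TKI 1 and to 4685 to 8034 CPM in the other 3, and all 10 were called higher (7 with CML 1 to 3 summed). Mpo, the granule peroxidase of neutrophils and their precursors, had 2.70 to 25.8 CPM in CML and 695 to 4638 CPM in CML-TKI, and Csf1r, the receptor for macrophage colony-stimulating factor, had 0.965 to 3.67 and 76.0 to 391 CPM. No granulocyte or monocyte marker was at 0 in all libraries of a group. In the order of the CML-TKI libraries, CML-TKI 1 was the lowest both in Hk3 and in the granulocyte sum. The order of the others differed, with Hk3 highest in CML-TKI 3, the granulocyte sum in CML-TKI 4 and the monocyte sum in CML-TKI 2. These markers rose in the same libraries as Pfkp, Pgam1 and Pkm, described below. Within the CML-TKI group the order of Pkm differed. It was highest in CML-TKI 1 (1224 CPM), which had the lowest granulocyte sum, and lowest in CML-TKI 4 (734 CPM), which had the highest. Their part in the levels of Hk3, Pfkp, Pgam1 and Pkm was not tested, and in bulk RNA more cells of a type and more RNA per cell cannot be told apart.

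Markers of hematopoietic stem cells (HSCs) moved with Hk1. The 10 HSC markers summed to 1135 to 1432 CPM in the CML libraries, 369 CPM in CML-TKI 1 and 46.5 to 85.3 CPM in CML-TKI 2 to 4. Of the 9 of them that were tested, edgeR called 3 lower, DESeq2 5 and limma-voom 9, while without CML-TKI 1 edgeR called 9 of 10, without any 1 of the CML libraries, CML-TKI 3 or CML-TKI 4 it called 2, and with CML 1 to 3 summed 0 of 9 (4 at an unadjusted p under 0.05), and 9 of 10 lay below the whole CML range in each CML-TKI library. Mecom, Procr and Fgd5 had no count in CML-TKI 2 and CML-TKI 4. The order within the CML-TKI group differed, since Hk1 was highest in CML-TKI 4 and the HSC sum in CML-TKI 1. The 5 megakaryocyte markers summed to 1198 to 1439 CPM in CML and 48.7 to 519.8 CPM in CML-TKI, with the highest CML-TKI value in CML-TKI 4. Of these 5, edgeR called 2 lower, DESeq2 and limma-voom 4 each, while edgeR called 5 without CML-TKI 4, 3 without CML-TKI 2, 1 without CML-TKI 3 or any 1 CML library, and 0 with CML 1 to 3 summed (3 at an unadjusted p under 0.05). The 5 erythroid markers summed to 640.4 to 786 CPM in CML and 13.02 to 671 CPM in CML-TKI, again highest in CML-TKI 4, and edgeR called 0 of 5 (1 at an unadjusted p under 0.05, with 0 adjusted calls by DESeq2, 2 by limma-voom and 2 by edgeR without CML-TKI 4). The part of these cells in the Hk1 level was not tested.

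**Figure D2:**
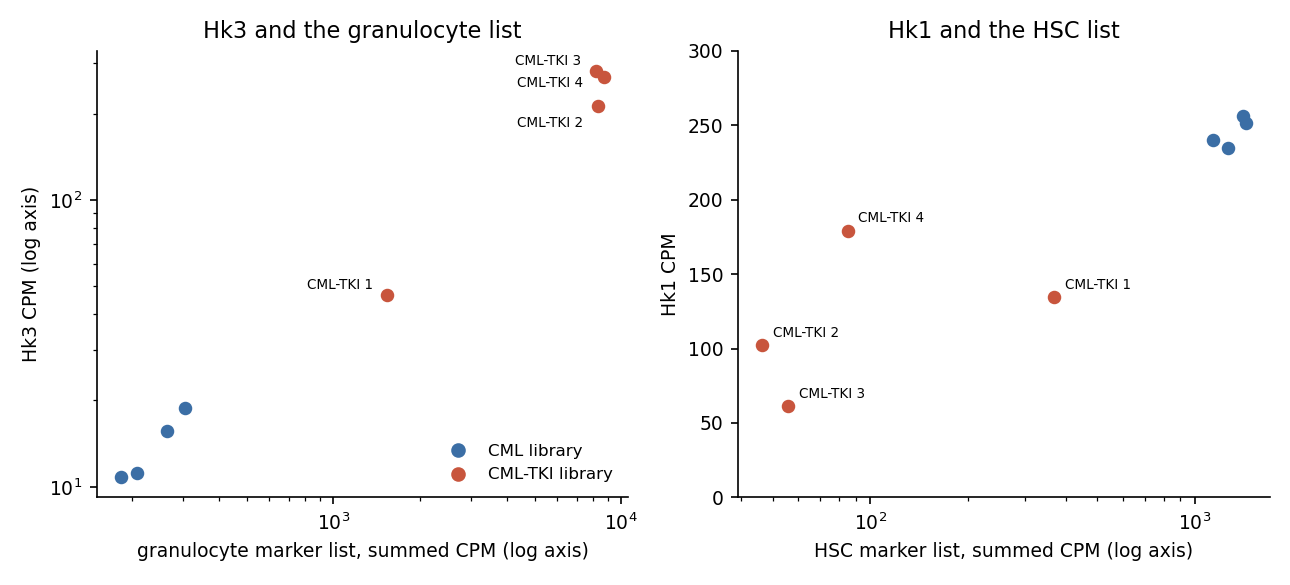
On the left, Hk3 CPM against the summed CPM of 14 granulocyte markers, both on log axes, and on the right, Hk1 CPM on a linear axis against the summed CPM of 10 HSC markers on a log axis, with a point for each of the 8 libraries (CML in blue, CML-TKI in red). CML-TKI 1, at 46.7 CPM of Hk3 and 1539 CPM of granulocyte markers, lies between the CML libraries and the other 3 CML-TKI libraries on the left.

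Markers of lymphoid cells were highest in CML-TKI 3. The 3 B cell markers summed to 0.193 to 1.92 CPM in CML, to 1.04 to 1.86 CPM in 3 CML-TKI libraries and to 164 CPM in CML-TKI 3. The 3 T cell markers had no count in any CML library, and in CML-TKI 1 to 4 they summed to 1.71, 0.620, 48.2 and 12.2 CPM. The part of B and T cells in the isoenzyme levels was not tested. In that library, the shallowest, 3 counts correspond to 2.88 CPM.

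By the likeness of their pattern over the 8 libraries, Hk3 was closest to Vsir, an inhibitory receptor of myeloid and T cells (Pearson r of log2 CPM 0.9952), Itgal, the alpha chain of the leukocyte integrin LFA-1 (0.9951), and Prss57, a serine protease of neutrophil granules (0.9949), among 9314 genes. Hk1 was closest to Tal1, the transcription factor also called SCL (0.9891), the platelet receptor subunit Gp1ba (0.9879) and the decapping factor Edc3 (0.9875). Pgam1 was closest to G6pdx, the first enzyme of the pentose phosphate pathway (0.9961), the lysosomal protease Ctsz (0.9934) and the cyclin Ccne1 (0.9933). These are descriptions over 8 points that share their libraries and group difference, and many genes reach such values in a table with 2 separated groups.

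Of the phosphofructokinase subunits, the platelet type Pfkp was called higher in the CML-TKI libraries, while Pfkl and Pfkm were not called. Pfkp (chr13:6579874-6649060) had 33.8, 28.8, 32.1 and 32.0 CPM in the CML libraries and 48.4, 88.9, 74.5 and 60.4 CPM in the CML-TKI libraries. All 4 CML-TKI libraries lay above the CML libraries, which were tightly grouped. Its log2 fold change was 1.10 ± 0.249 (SE), with an edgeR adjusted p of 0.0216. The call was lost without CML 1, CML 2 or CML 3 (adjusted p 0.0735 to 0.0851), without CML-TKI 2 (adjusted p 0.0547) and with CML 1 to 3 summed (adjusted p 0.282), with log2 fold changes of 0.93 to 1.14.

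Pfkl (chr10:77986947-78009807), the liver type subunit, had 115, 110.0, 100.1 and 144 CPM in the CML libraries and 119.9, 132, 42.7 and 63.7 CPM in the CML-TKI libraries. CML-TKI 1 and CML-TKI 2 lay within the CML range, and CML-TKI 3 and CML-TKI 4 below it. Its fitted log2 fold change was -0.38 ± 0.340 (SE), with an edgeR adjusted p of 0.533.

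Pfkm (chr15:98092589-98132447), the muscle type subunit, had 51.6, 51.5, 50.1 and 60.6 CPM in the CML libraries and 59.6, 18.0, 5.48 and 29.9 CPM in the CML-TKI libraries. CML-TKI 1 was within the CML range and the other 3 were below it, down to 5 counts in CML-TKI 3. The log2 fold change was -0.88 ± 0.521 (SE), with an edgeR adjusted p of 0.326. Without CML-TKI 1 it was -1.51, with an adjusted p of 0.0373, and without CML-TKI 3 it was -0.56, with an adjusted p of 0.377.

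The composition of the family followed these levels. Pfkp made up 16.8%, 15.1%, 17.6% and 13.5% of the phosphofructokinase counts in the CML libraries and 21.2%, 37.2%, 60.7% and 39.2% in the CML-TKI libraries, with no overlap (15.8 ± 1.83% and 39.6 ± 16.2%, SD, n = 4 each). By counts, Pfkl was the largest share in every CML library (54.9% to 60.9%) and in CML-TKI 1, CML-TKI 2 and CML-TKI 4 (52.6%, 55.3% and 41.4%), but not in CML-TKI 3 (34.8%). Per base of transcript, Pfkp took 39.0% in CML-TKI 4 and Pfkl 37.7%, so the order of the 2 turned in that library. The Pfkm share was 25.6% to 27.5% in CML and 4.46% to 26.2% in CML-TKI, and it overlapped through CML-TKI 1. CML-TKI 3 gave the highest Pfkp share from only 112 counts of the family, with a widest 95% Wilson half-width of 8.9 percentage points among its isoenzyme shares. The family sum was 182 to 237 CPM in CML and 123 to 239 CPM in CML-TKI, so that the groups overlapped. The gap between the mean Pfkp shares was 23.8 percentage points, and 16.8 to 29.9 points when any 1 library was left out.

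**Figure D3:**
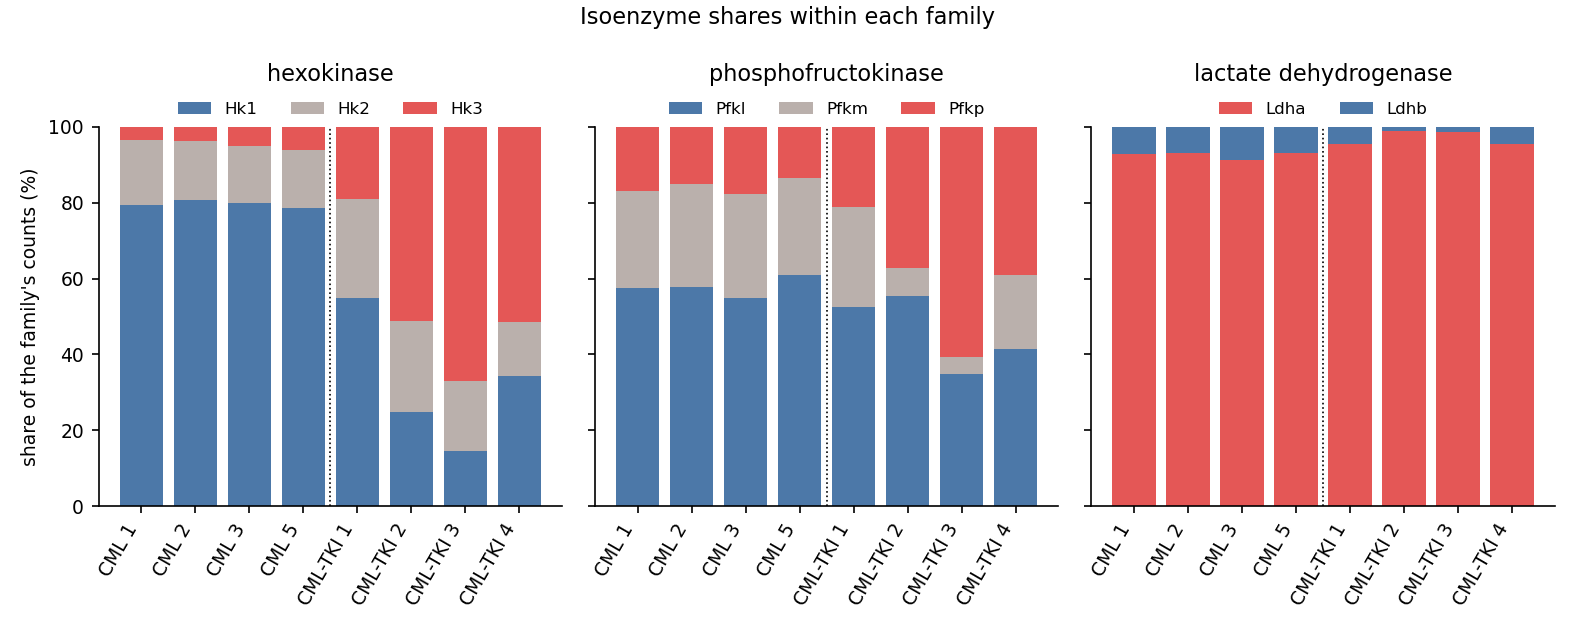
Share of each isoenzyme (percent of the family's counts) in the 3 hexokinases, 3 phosphofructokinases and 2 lactate dehydrogenases, with a stacked bar for each library and a dotted line between the 4 CML and the 4 CML-TKI libraries. Hk3 takes 3.46% to 6.16% of its family in CML and 19.1% to 66.9% in CML-TKI, and Pfkp takes 13.5% to 17.6% and 21.2% to 60.7%.

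Pgam1 and Pkm, which act in lower glycolysis, were both called higher in the CML-TKI libraries. Pgam1 (chr19:41911871-41918665) had 108, 100.4, 96.2 and 131 CPM in the CML libraries and 311, 850.4, 452 and 369 CPM in the CML-TKI libraries. Every CML-TKI library was well above the CML range, and CML-TKI 2 was the highest. The fit gave a log2 fold change of 2.18 ± 0.327 (SE), with an edgeR adjusted p of 0.00340, and it was 1.78 to 2.35 with an adjusted p of at most 0.0191 when any 1 library was left out. With CML 1 to 3 summed it was 2.06, with an adjusted p of 0.108.

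Pkm (chr9:59656576-59679372) had 517, 424, 482 and 576 CPM in the CML libraries and 1224, 1044, 1043 and 734 CPM in the CML-TKI libraries. The groups did not overlap, and CML-TKI 4 was nearest to the CML range. The fit gave a log2 fold change of 1.02 ± 0.215 (SE), with an edgeR adjusted p of 0.0163. The call was lost without CML 1, CML 2 or CML 3 (adjusted p 0.0632 to 0.0703) and with CML 1 to 3 summed (0.282). Of the splicing factors known to set the choice between PKM1 and PKM2, Ptbp1 had 376 to 527 CPM in CML and 332 to 492 CPM in CML-TKI (log2 fold change -0.09, edgeR adjusted p 0.828), Hnrnpa1 had a log2 fold change of -0.48 (adjusted p 0.609), Hnrnpa2b1 of 0.32 (adjusted p 0.323) and Srsf3 of 0.01 (adjusted p 0.984).

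Lactate dehydrogenase transcripts were almost all Ldha in both groups. Ldha (chr7:46842274-46855627), whose subunit favors the making of lactate, had 393, 357, 332 and 480.1 CPM in the CML libraries and 720.8, 499, 422 and 247 CPM in the CML-TKI libraries. CML-TKI 1 and CML-TKI 2 lay above the CML range, CML-TKI 3 within it and CML-TKI 4 below it. The log2 fold change was 0.27 ± 0.306 (SE), with an edgeR adjusted p of 0.622, and without CML-TKI 1 it was -0.0094 (adjusted p 0.984).

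Ldhb (chr6:142490249-142507957), the subunit that predominates in the heart, had 30.4, 26.1, 32.3 and 34.9 CPM in the CML libraries and 34.8, 5.58, 5.48 and 11.4 CPM in the CML-TKI libraries. CML-TKI 1 was within the CML range and the other 3 libraries were below it, with 18, 5 and 44 counts. The log2 fold change was -1.06 ± 0.557 (SE), with an edgeR adjusted p of 0.267, and without CML-TKI 1 it was -1.99 with an adjusted p of 0.00651.

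The Ldha share separated the groups although neither subunit was called. It was 92.8%, 93.2%, 91.15% and 93.2% in the CML libraries and 95.4%, 98.9%, 98.7% and 95.6% in the CML-TKI libraries (92.6 ± 0.982% and 97.1 ± 1.92%, SD, n = 4 each). The family sum overlapped between the groups, at 365 to 515 CPM in CML and 258 to 756 CPM in CML-TKI.

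In all, edgeR called 4 of the 10 genes higher and 0 lower (1 lower at an unadjusted p under 0.05), beside 10.2% of 11937 genes called in either direction, 6.29% higher and 3.93% lower. By DESeq2 and by limma-voom the counts were 5 higher and 1 lower, the latter being Hk1, while these tools called 2157 and 2544 of all genes against 1220 by edgeR. Without overlap between the libraries, 5 of the 10 genes were higher in CML-TKI and 1 lower, beside 10.3% and 13.1% of all genes and 23.4% in either direction. The median log2 fold change was 0.48 for the 10 genes and -0.00026 for all genes tested. The genes were chosen with values of this contrast known, so these counts describe the list and carry no test. With CML 1 to 3 summed, edgeR called 0 of the 10 genes (4 higher and 1 lower at an unadjusted p under 0.05) and 122 genes in all.

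**Figure D4:**
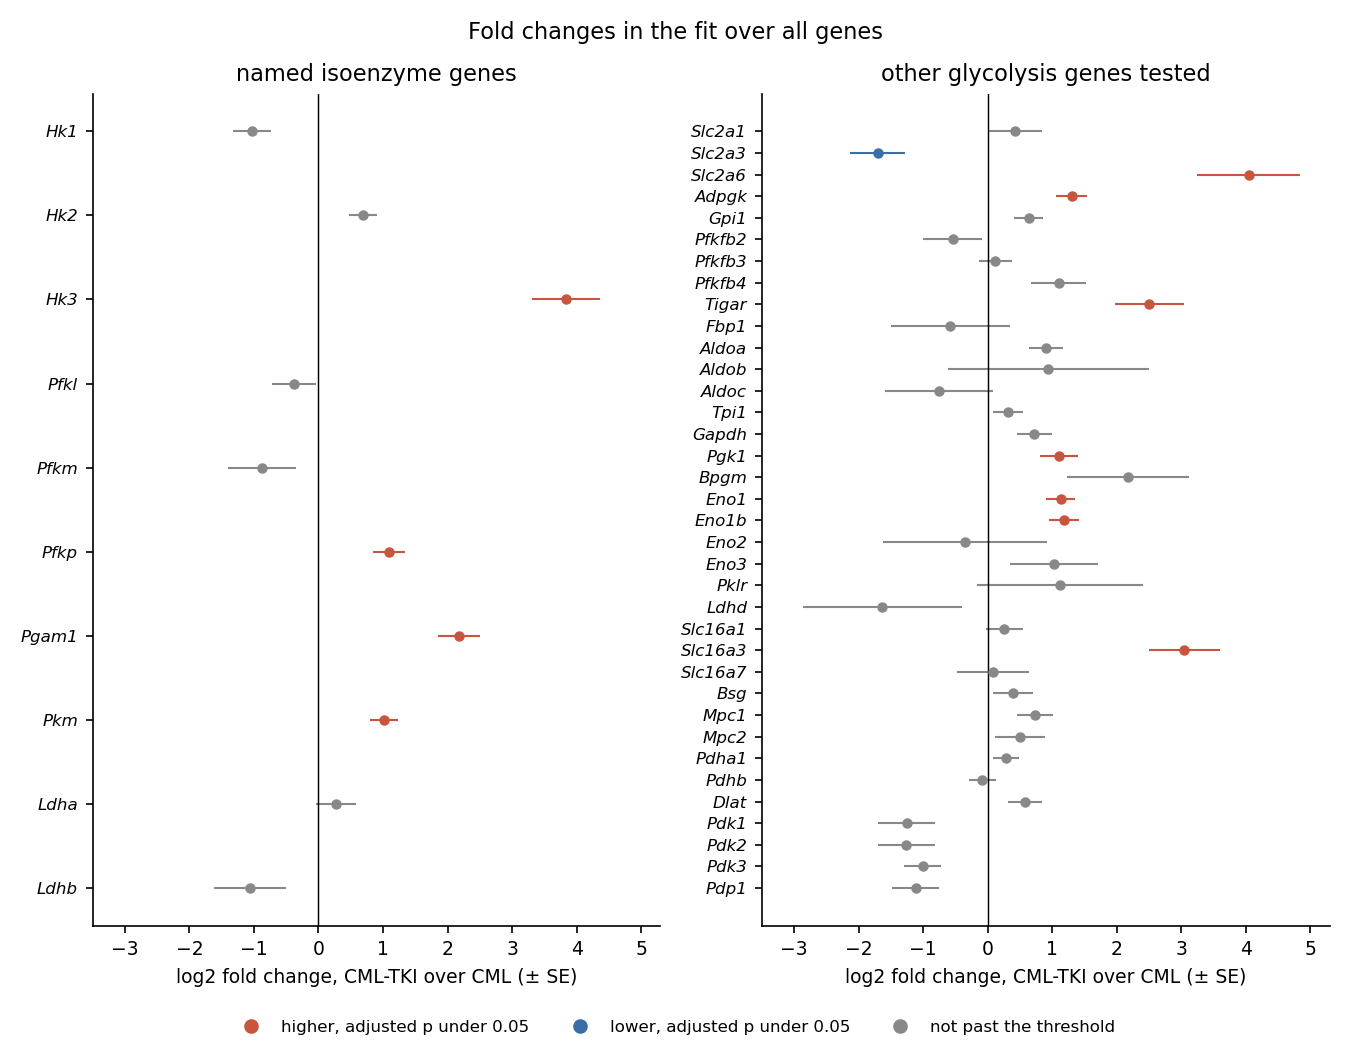
Log2 fold change of CML-TKI over CML (± SE) in the edgeR fit over all genes, for the 10 isoenzyme genes on the left and the 36 tested other glycolysis genes on the right, in red where called higher, in blue where called lower and in gray where the adjusted p did not pass 0.05. Hk3 (3.83), Pfkp (1.10), Pgam1 (2.18) and Pkm (1.02) are red on the left, and Slc2a3 (-1.70) is the blue point on the right.

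Compared per length of transcript, the order of the 10 genes differed between the groups. In CML, Ldha (229.5 ± 38.0 CPM per kb, SD, n = 4) and Pkm (223 ± 28.6) led and did not differ beyond their spread, followed by Pgam1 (61.45 ± 8.82) and Hk1 (60.4 ± 2.42), which likewise did not. Pfkl (31.5 ± 5.12) and Ldhb (23.7 ± 2.86) came next, with ranges of 26.8 to 38.7 and 19.98 to 26.8 CPM per kb that nearly met, and then Pfkm (18.9 ± 1.71), whose range of 17.7 to 21.4 CPM per kb overlapped that of Ldhb. Pfkp (9.28 ± 0.615) and Hk2 (8.87 ± 0.822) were within each other's spread, and Hk3 (4.67 ± 1.27) was the lowest. In CML-TKI, Pkm led (452 ± 91.1 CPM per kb), although its range overlapped those of Pgam1 and Ldha, and Pgam1 (279 ± 137) and Ldha (277.5 ± 115.5, SD, n = 4) followed within each other's spread, and Hk3 (67.0 ± 35.8) came next with a range of 15.5 to 93.2 CPM per kb that took in those of Hk1 and Pfkl in part. Below it, Hk1 (29.4 ± 12.3), Pfkl (24.0 ± 11.6), Pfkp (19.95 ± 5.14), Hk2 (14.3 ± 2.68), Ldhb (10.98 ± 10.7) and Pfkm (9.98 ± 8.19) formed a run in which the ranges of neighbors overlapped, although the means of Pfkp and Hk2 lay further apart than either SD. Lengths were means over the RefSeq transcripts of a gene, from 1304 bases for Ldhb to 5513 bases for Hk2.

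Among the other genes of the pathway, Pgk1 and Eno1 of lower glycolysis and the lactate exporter Slc16a3 were among those called higher, and the glucose transporter Slc2a3 lower. Of 46 listed genes 43 were in the table and 36 were tested, and edgeR called 7 higher and 1 lower while 28 did not pass, beside 6.29% and 3.93% of all genes, with a median log2 fold change of 0.46. The number called was 4, 3 and 2 without CML 1, CML 2 and CML 3 (505, 552 and 570 over all genes), 14 without CML-TKI 1 (2504 over all genes), and 0 with CML 1 to 3 summed (7 higher and 2 lower at an unadjusted p under 0.05, and 122 calls over all genes). The call of Slc2a3 was lost without any 1 of the CML libraries and without CML-TKI 4. Slc2a3, a high-affinity glucose transporter, had 184, 169, 179 and 225 CPM in the CML libraries and 93.8, 17.7, 46.0 and 73.4 CPM in the CML-TKI libraries (log2 fold change -1.70 ± 0.425 SE, adjusted p 0.0329). Slc2a1, the widely expressed glucose transporter, had 29.4 to 44.0 and 15.1 to 62.1 CPM and was not called (0.42, adjusted p 0.573). Slc2a6, a transporter of lysosomal membranes, had at most 2.51 CPM in the CML libraries and 12.5, 33.8, 20.8 and 10.1 CPM in the CML-TKI libraries (4.04, adjusted p 0.0119).

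Of the enzymes between the named steps, Adpgk, a glucokinase that uses ADP, had 37.2 to 44.6 CPM in CML and 65.5 to 124 CPM in CML-TKI (log2 fold change 1.30, edgeR adjusted p 0.00967). Tigar, which hydrolyzes fructose 2,6-bisphosphate, had 2.48 to 4.77 CPM and 9.63 to 40.9 CPM (2.50, adjusted p 0.0175). Pgk1, which makes ATP in the step before Pgam1, had 149 to 159 CPM and 166 to 490.0 CPM (1.10, adjusted p 0.0449). The enolase gene Eno1, which acts after Pgam1, had 135 to 168 CPM and 215 to 401 CPM (1.13, adjusted p 0.0132), and its near-identical copy Eno1b had a log2 fold change of 1.18 (adjusted p 0.0112), and how reads were split between the copies is uncertain. Gpi1 (0.63, adjusted p 0.0998), Aldoa (0.90, adjusted p 0.0573), Tpi1 (0.31, adjusted p 0.443) and Gapdh (0.72, adjusted p 0.116) did not pass, and Gapdh was counted at only 17.2 to 38.4 CPM in this table.

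Slc16a3, the lactate exporter MCT4, had 6.26, 6.37, 5.60 and 12.6 CPM in the CML libraries and 95.7, 26.3, 107 and 29.4 CPM in the CML-TKI libraries (log2 fold change 3.05 ± 0.549 SE, adjusted p 0.00845). Slc16a1, the carrier MCT1, had 116 to 160.4 and 103 to 241 CPM (0.26, adjusted p 0.626). Of the kinases that inhibit pyruvate dehydrogenase, Pdk1, Pdk2 and Pdk3 lay below the CML range in each CML-TKI library but were not called by edgeR. The groups overlapped for Pdk4. The opposing phosphatase Pdp1 also lay below the CML range in each (22.4 to 28.4 against 6.58 to 17.7 CPM, log2 fold change -1.12, edgeR adjusted p 0.0844). Values were highest for Pdk1 and Pdk3, with Pdk1 at 141 to 182 CPM in CML and 14.2 to 92.9 CPM in CML-TKI (-1.26, adjusted p 0.0990) and Pdk3 at 88.1 to 98.4 and 26.3 to 72.2 CPM (-1.01, adjusted p 0.0545).

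Of 11 regulators of these genes, edgeR called 1, the myeloid transcription factor Spi1 (PU.1), higher and 0 lower (3 higher and 0 lower at an unadjusted p under 0.05, and 3 higher and 0 lower after adjustment by DESeq2 and by limma-voom), beside 10.2% of all genes called by edgeR in either direction. Spi1 had 18.4, 13.5, 20.3 and 30.0 CPM in the CML libraries and 39.9, 118, 58.1 and 76.2 CPM in the CML-TKI libraries (log2 fold change 1.83 ± 0.383 SE, adjusted p 0.0156). With edgeR, 0 regulators were called without CML 1, CML 2 or CML 3 (3 at an unadjusted p under 0.05 each time) and with CML 1 to 3 summed (2 at an unadjusted p under 0.05), and 2 were called without CML-TKI 1 or CML-TKI 3. Hif1a, the hypoxia-inducible factor, had 93.0, 88.6, 84.4 and 38.5 CPM in the CML libraries and 118, 175, 162 and 144 CPM in the CML-TKI libraries. The groups did not overlap, but edgeR did not call it (0.97, adjusted p 0.0643). Stat3 had 165 to 223 CPM and 172 to 239 CPM (0.04, adjusted p 0.915), and Myc had 85.0 to 134 and 32.9 to 112 CPM (-0.58, adjusted p 0.301). RNA levels do not measure the phosphorylation of STAT3.

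Some counts are uncertain because of overlapping genes. Exons of Hk3 overlap those of Unc5a, exons of Pfkm those of Senp1 and exons of Pfkp those of Pitrm1, each on the opposite strand, and the kit does not mark strand, so reads of the shared bases cannot be told apart. Unc5a had 51 to 99 counts in the CML libraries and 7 to 28 in the CML-TKI libraries, against 56 to 137 and 246 to 1035 counts of Hk3. Senp1 had 623 to 1070 counts in CML and 91 to 766 in CML-TKI, more than Pfkm in every library, with 605 against 58 in CML-TKI 2 and 91 against 5 in CML-TKI 3. Pitrm1 had 420 to 770 counts in CML and 62 to 440 in CML-TKI, against 149 to 248 and 68 to 287 of Pfkp. The part of these neighbors in the counts of Hk3, Pfkm and Pfkp was not tested. Pfkm also overlaps Gm26513 and Pkm overlaps Gm49759, each on the same strand and without a count here. Hk1os, the antisense gene of Hk1, had at most 3 counts in any library. Pgam1 and Ldha have processed pseudogenes, to which near-identical reads may align.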

How the data were processed

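RNA was extracted with an RNeasy Plus mini kit and made into Nextera XT libraries. The authors used STAR 2.6.1d to align the read pairs to mm10, counted against RefSeq transcripts with Partek 8.0, and deposited the estimated counts of each gene, not normalized. Between 7.64% and 21.9% of a library's values were not whole. Columns were matched to the sample titles by group and number, since the description label repeats 1 column name for several samples. A CML column numbered 5, which no label gives, entered as an unnumbered CML library, and no column was left unused.

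The estimated counts were rounded and fitted with edgeR 4.0.16 in R 4.3.3 (TMM, filterByExpr with a minimum count of 10 and a minimum total of 15, robust quasi-likelihood test, CML-TKI against CML), with Benjamini-Hochberg adjustment over 11937 genes and a threshold of 0.05. SE was taken as the fitted log2 change over the root of F. CPM values use the TMM factors. The fit was tested on simulated data. Shares are counts of a gene over those of its family. Promoter windows and gene positions came from RefSeq (GRCm38), exons from GENCODE M21.

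The genes and lists were chosen with earlier results of these data known. Named were all 10 genes, other glycolysis genes and regulators past the threshold with at most 8 that fill a step, the 3 genes most like Hk3, Hk1 and Pgam1 in log2 CPM (prior count 2, mean of at least 3), and sort markers. Of the other genes, Pdk2, Pdk4, Pdp1, Hif1a, Myc, Stat3, Ly6a, Flt3, the splicing factors, single cell type markers and overlapping genes were named after their values were seen. Alternatives were DESeq2 1.42.0, limma-voom (limma 3.58.1), RLE factors, no Rn45s, no filter, a replicate block, leaving out each library and summing CML 1 to 3.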

Additional observations from a re-analysis of the deposited data

Results flagged for a closer look

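Pfkm in the library CML 5 stood apart from the other CML libraries, with 60.6 CPM against 50.1 to 51.6 CPM in the other 3, a gap of 0.852 of the group's range which is above Dixon's critical value for 4 samples at 95%. It was the only such value among 34 groups checked (the levels and shares of the isoenzymes in each condition), of which 1.7 would be expected by chance.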

How the results depend on the processing

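Of 160 fits of single isoenzyme genes under alternatives, 136 kept their direction and side of the threshold, 13 lost and 10 gained a call, and 1 reversed: without CML-TKI 1 the log2 fold change of Ldha was -0.0094, the lowest of a range of -0.0094 to 0.48 without 1 library. All 77 alternative values of the share differences moved by less than the spread between libraries. Without 1 library, 2 to 8 of the 10 genes (4 with all libraries) and 2 to 14 of the other glycolysis genes (8 with all libraries) were called, beside 505 to 2504 of all genes (1220 with all libraries), fewest for the 10 genes without CML 1, CML 2 or CML 3 (2 each) and most without CML-TKI 1 (8). Of the other glycolysis genes, DESeq2 and limma-voom called 15 each. With CML 1 to 3 summed, 0 of the 10 and 0 of the other glycolysis genes were called (5 and 9 at an unadjusted p under 0.05). Over all genes, 1220 were called by edgeR, 2157 by DESeq2, 2544 by limma-voom and 122 with CML 1 to 3 summed. The share differences without 1 library ranged from -55.1 to -41.6 percentage points for Hk1, 3.11 to 7.01 for Hk2, 36.0 to 52.0 for Hk3, -14.8 to -8.01 for Pfkl, -16.0 to -8.76 for Pfkm, 16.8 to 29.9 for Pfkp and 3.97 to 5.13 for Ldha. Hk1 was called with RLE factors (adjusted p 0.0473), DESeq2 (0.00533), limma-voom (0.00848) and without CML-TKI 1 (0.0429) or CML-TKI 4 (0.0292), its adjusted p ranging from 0.00533 to 0.320. Hk2 was called by DESeq2 (0.0214), limma-voom (0.0480) and without CML-TKI 1 (0.0317), within a range of 0.0214 to 0.427. The cause of these differences was not tested.

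Same-numbered CML and CML-TKI libraries had correlations of 0.00985, 0.0531 and 0.045 after the group means were taken out. Only CML 2 correlated best with its own number. Since CML 1, CML 2 and CML 3 resembled each other closely, these values cannot decide whether the replicate numbers pair the libraries. With a replicate block on the 6 libraries that share a number, 3 of the 10 genes (Pfkp had an adjusted p of 0.186), 1 other glycolysis gene and 193 genes in all were called, against 3, 6 and 589 for the same 6 libraries without the block, an alternative added after seeing the data. Over all genes the median log2 change was -0.128 with the block and -0.114 with limma-voom, and within 0.1 of 0 otherwise.

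Depth limits the low values of CML-TKI 3, where Pfkm and Ldhb had 5 counts each.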
